A study of Homo sapiens with 12 samples.

Results

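Eph receptors are receptor tyrosine kinases and ephrins are the ligands that bind them from the surface of a neighbouring cell. The 9 genes described here are 5 receptors (EPHA2, EPHA4, EPHB2, EPHB3 and EPHB4) and 4 ephrins (EFNA1, EFNA5, EFNB1 and EFNB2), taken by Ensembl identifier from the 58735 genes of a count table. They were measured in 12 RNA-seq libraries from KP4 and MiaPaca2, established lines of human pancreatic ductal adenocarcinoma. KP4 trametinib, KP4 DMSO, MiaPaca2 trametinib and MiaPaca2 DMSO held 3 libraries each. The trametinib groups received the drug, which inhibits the kinases MEK1 and MEK2 away from their ATP site, at 100 nM for 48 h, and the DMSO groups received solvent for the same time. All cells grew in DMEM with 10% fetal bovine serum, and column-purified RNA was made into libraries of polyadenylated RNA (Tecan Universal mRNA Plus kit). The labels do not say whether the 3 libraries of a group are separate cultures. The p-values therefore reflect only how far these libraries differ, and that spread may be technical. Each line is a single model, and the design compares the drug with its solvent within each line and the lines with each other.

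A-type ephrins are held in the membrane by a lipid anchor and bind mainly EphA receptors, while B-type ephrins span the membrane and bind mainly EphB receptors, with EPHA4 accepting both types. Binding clusters the receptor and starts kinase signalling in its own cell (forward signalling), and it also starts signalling in the cell that carries the ephrin (reverse signalling), which together steer adhesion, repulsion and cell sorting at contacts. In epithelial tumours EPHA2 is known for activity both with its ligand EFNA1, which damps growth signalling, and without ligand, where other kinases phosphorylate its tail and promote migration. MEK1 and MEK2 activate the kinase ERK.

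The promoters of 3 genes that fell in both lines (EPHA2, EPHB2 and EFNB2) are shown. Beside them stand the promoters of EPHA4 and EFNA5, the pair with the widest gap in level between the lines. They were read from RefSeq promoter sequences on build GRCh38.p14, in which all 9 genes had an entry, and each covers up to 250 bases ahead of the RefSeq start, without bases that GENCODE counts as exon. Letters are 5′ to 3′ on the gene's strand, and capitals mark a match to 1 of 5 motifs.
EPHA2, chr1:16156088-16156319, minus strand: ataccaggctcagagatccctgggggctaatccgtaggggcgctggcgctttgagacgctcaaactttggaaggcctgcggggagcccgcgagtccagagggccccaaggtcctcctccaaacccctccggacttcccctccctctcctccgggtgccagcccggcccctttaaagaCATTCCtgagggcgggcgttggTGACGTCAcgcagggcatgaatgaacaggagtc
EPHA4, chr2:221574203-221574452, minus strand: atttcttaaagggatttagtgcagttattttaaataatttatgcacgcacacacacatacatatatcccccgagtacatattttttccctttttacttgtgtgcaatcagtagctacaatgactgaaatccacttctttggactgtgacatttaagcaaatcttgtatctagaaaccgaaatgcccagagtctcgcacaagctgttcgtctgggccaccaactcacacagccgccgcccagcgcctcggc
EPHB2, chr1:22710588-22710837, plus strand: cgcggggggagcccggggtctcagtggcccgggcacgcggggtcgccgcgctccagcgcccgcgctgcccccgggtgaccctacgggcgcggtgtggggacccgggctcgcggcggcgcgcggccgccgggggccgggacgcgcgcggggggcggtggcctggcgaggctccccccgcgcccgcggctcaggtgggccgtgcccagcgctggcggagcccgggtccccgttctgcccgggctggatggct
EFNA5, chr5:107670938-107671187, minus strand: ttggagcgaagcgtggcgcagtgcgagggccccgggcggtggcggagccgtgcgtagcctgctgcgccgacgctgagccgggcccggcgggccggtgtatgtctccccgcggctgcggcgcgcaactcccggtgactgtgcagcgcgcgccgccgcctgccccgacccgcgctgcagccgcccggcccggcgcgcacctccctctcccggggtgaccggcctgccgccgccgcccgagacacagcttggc
EFNB2, chr13:106535663-106535912, minus strand: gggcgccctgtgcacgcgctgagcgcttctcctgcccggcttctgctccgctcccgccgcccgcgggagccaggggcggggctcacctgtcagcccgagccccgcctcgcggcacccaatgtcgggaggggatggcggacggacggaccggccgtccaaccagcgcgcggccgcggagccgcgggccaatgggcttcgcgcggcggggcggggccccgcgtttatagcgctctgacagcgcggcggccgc

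Both strands were searched for TGANTCA (AP-1), TGACGTCA (the cyclic AMP response element), CCGGAAGT (ETS), GTAAACA (FOXO) and GGAATG (TEAD). Among the 9 genes a match was found only in EPHA2, where TGACGTCA lay at -51 to -44 from the RefSeq start and GGAATG lay on the opposite strand at -73 to -68. Of 35116 promoters of the same length, 1.65% held TGACGTCA, 11.9% GGAATG, 6.57% TGANTCA, 3.42% CCGGAAGT and 2.98% GTAAACA. These matches are letters only, and binding was not measured. The EPHB2 window was 84.8% G and C, EFNA5 79.6%, EFNB2 78.4%, EPHA2 63.2% and EPHA4 43.2%, against a median of 58.0% over all promoters. The EFNA1 window lies within an annotated exon and is not printed, and EPHA4 has a second RefSeq start with a window at 78.0%.

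Library totals ran from 20293688 to 28018129 counts, and 16133 genes passed the filter on low counts, all 9 Eph receptors and ephrins among them. MiaPaca2 DMSO replicate 2 stood apart from its group: its counts differed from those of replicates 1 and 3 by a chi-square of 14.5 and 13.3 per degree of freedom, against 7.70 between replicates 1 and 3 and 2.02 to 2.89 in the other groups. For the 9 genes, calls that change without it are given with both values. A list of 12 transcripts that depend on ERK was chosen with earlier results of these data known. It is therefore no independent check of the drug labels. All 12 fell with trametinib in KP4 and 11 fell in MiaPaca2 at an adjusted p under 0.05, against 23.6% and 29.5% of all genes tested. ETV4, an ETS factor of that list, averaged 1.08 ± 0.0416 CPM (depth-normalised counts, scaled by TMM) in KP4 trametinib and 124 ± 3.68 CPM in KP4 DMSO (SD, n = 3 each). Its log2 fold change was -6.84 ± 0.12 (SE) in KP4 and -6.72 ± 0.14 in MiaPaca2, and next to it stood the ERK phosphatase DUSP6 in KP4 (-6.63 ± 0.31) and the feedback inhibitor SPRY4 in MiaPaca2 (-6.03 ± 0.08). The exception was IER3 in MiaPaca2, at 0.39 ± 0.05. Of the ductal and epithelial markers, KRT8, KRT18 and KRT19 were above 1 CPM in all 4 groups, whereas the duct gene CFTR had 0 counts in all 12 libraries.

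With trametinib, the EPHA2 transcript was 3.82-fold lower in KP4 and 3.54-fold lower in MiaPaca2, the receptor EPHB2 and the ephrin EFNB2 also fell in both lines, and the ephrins EFNA1 and EFNA5 rose in both. EPHA4 rose in MiaPaca2, and EPHB4 rose in KP4 and fell in MiaPaca2. Differences are given as log2 fold changes from edgeR's quasi-likelihood test with p-values adjusted over all 16133 genes, and a gene was called at an adjusted p under 0.05. In KP4, 6 of the 9 genes were called (66.7%), 3 higher and 3 lower, against 47.2% of all genes tested. In MiaPaca2, 7 of the 9 were called (77.8%), 3 higher and 4 lower, against 63.6% of all genes. A called change of at least 2-fold was seen for 2 of the 9 in KP4 (EPHA2 and EFNB2) and for 3 in MiaPaca2 (EPHA2, EPHA4 and EFNA1), against 8.67% and 17.5% of all genes. The median log2 fold change of the 9 was -0.06 in KP4 and -0.23 in MiaPaca2, against 0.00 and 0.05 over all genes tested. In these bulk samples, fewer cells that express a gene and less of its RNA per cell cannot be told apart.

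**Figure D1:**
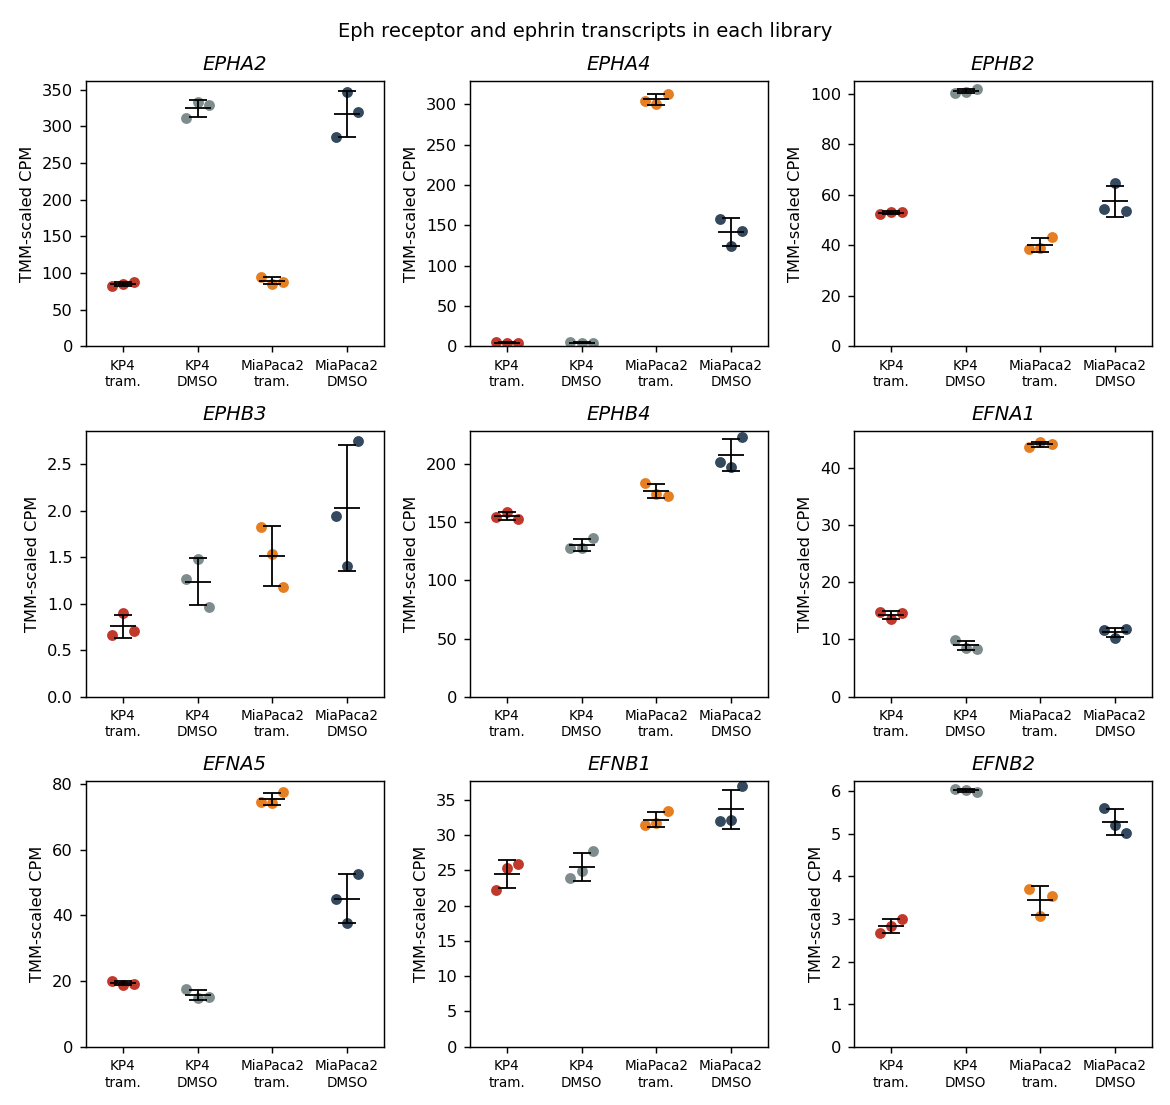
TMM-scaled CPM (vertical axis, linear from 0, a scale of its own per gene) of the 9 genes in the 12 libraries (horizontal axis, 4 groups), where points are libraries and bars are the mean ± SD of 3. EPHA2 lies at 82.7 to 94.5 CPM in the 6 trametinib libraries and at 285 to 347 CPM in the 6 DMSO libraries, and EPHA4 reaches 124 CPM or more only in MiaPaca2.

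EPHA2 (ENSG00000142627, minus strand, GRCh38 chr1:16124337-16156087) encodes the receptor best known in epithelial cancers. Its libraries held 82.7, 84.5 and 87.9 CPM in KP4 trametinib, against 312, 333 and 329 CPM in KP4 DMSO. In MiaPaca2 they held 94.5, 85.5 and 88.6 CPM with trametinib, against 285, 347 and 319 CPM with DMSO. Every trametinib library lay below every DMSO library, and the lines overlapped within each treatment. The mean was 3.82-fold lower in KP4 trametinib (log2 fold change -1.93 ± 0.06, SE, adjusted p = 2.19e-17) and 3.54-fold lower in MiaPaca2 trametinib (-1.82 ± 0.06, adjusted p = 2.39e-17). Among the 16133 genes tested, 190 fell further than EPHA2 in KP4 and 225 fell further in MiaPaca2. The responses of the lines differed by -0.11 on the log2 scale (95% interval -0.27 to 0.05, adjusted p = 0.311). Without MiaPaca2 DMSO replicate 2, the highest of the EPHA2 libraries, that difference was -0.18 with an adjusted p of 0.0185.

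EPHA4 (ENSG00000116106, minus strand, chr2:221418027-221574202) encodes a receptor that binds ephrins of both types. It held 5.34, 3.89 and 4.49 CPM in KP4 trametinib, against 5.19, 4.20 and 4.62 CPM in KP4 DMSO. The KP4 ranges overlapped fully (log2 fold change -0.02 ± 0.15, 95% interval -0.32 to 0.27, adjusted p = 0.921). In MiaPaca2 it held 304, 300.2 and 313 CPM with trametinib, against 158, 124 and 144 CPM with DMSO. All 3 trametinib libraries lay above the DMSO libraries (1.11 ± 0.07, adjusted p = 2.20e-10), and the value was 1.02 without DMSO replicate 2, the lowest of its group. The responses differed by -1.13 ± 0.17 (KP4 minus MiaPaca2, adjusted p = 4.15e-05). An antisense gene, ENSG00000272944, shares 353 exon bases with EPHA4. It had 3 to 21 counts in KP4 trametinib, 11 to 13 in KP4 DMSO, 43 to 55 in MiaPaca2 trametinib and 22 to 61 in MiaPaca2 DMSO. EPHA4 itself had 104 to 152 counts per KP4 library, and since the use of strand in counting is not given in the sources used here, reads of the shared bases cannot be assigned.

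EPHB2 (ENSG00000133216, plus strand, chr1:22710839-22921500) encodes a receptor for B-type ephrins that orders cells along the intestinal crypt. Its levels were 52.2, 53.3 and 53.1 CPM in KP4 trametinib, against 100.4, 100.6 and 101.8 CPM in KP4 DMSO. In MiaPaca2 they were 38.5, 38.8 and 43.1 CPM with trametinib, against 54.2, 64.6 and 53.4 CPM with DMSO. The groups did not overlap in either line, and MiaPaca2 DMSO replicate 2 was the highest of its 3. EPHB2 fell in KP4 (log2 fold change -0.93 ± 0.06, adjusted p = 2.70e-12) and in MiaPaca2 (-0.52 ± 0.07, adjusted p = 1.66e-07). The fall was larger in KP4, with a difference of -0.42 ± 0.09 (adjusted p = 6.23e-04). Without MiaPaca2 DMSO replicate 2 the MiaPaca2 value was -0.42 and the difference -0.51.

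EPHB3 (ENSG00000182580, plus strand, chr3:184561784-184582409), a close relative of EPHB2 that also binds B-type ephrins, was the scarcest of the 9, with 19 to 62 counts per library. It held 0.668, 0.897 and 0.705 CPM in KP4 trametinib, against 1.27, 1.48 and 0.966 CPM in KP4 DMSO. These groups did not overlap, but the difference missed the threshold (log2 fold change -0.70 ± 0.32, adjusted p = 0.0772). In MiaPaca2 it held 1.83, 1.53 and 1.18 CPM with trametinib, against 1.94, 1.41 and 2.75 CPM with DMSO, and the groups overlapped (-0.42 ± 0.29, 95% interval -0.99 to 0.15, adjusted p = 0.213). The MiaPaca2 value was -0.63 (adjusted p = 0.0708) without DMSO replicate 2 and -0.15 without DMSO replicate 3.

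EPHB4 (ENSG00000196411, minus strand, chr7:100802565-100827521) encodes the receptor of EFNB2, a pair known from the border between veins and arteries. In KP4 it held 155, 159 and 153 CPM with trametinib, against 128, 128 and 137 CPM with DMSO. In MiaPaca2 it held 184, 175 and 173 CPM with trametinib, against 202, 198 and 224 CPM with DMSO. Trametinib libraries were the higher in KP4 and the lower in MiaPaca2, with no overlap in either line. EPHB4 rose in KP4 (log2 fold change 0.25 ± 0.05, adjusted p = 7.51e-05) and fell in MiaPaca2 (-0.23 ± 0.05, adjusted p = 9.79e-05). The difference of the responses was 0.48 ± 0.07 (adjusted p = 2.00e-06). EPHB4 shares 69 exon bases with SLC12A9 on the other strand, a gene with 974 to 1509 counts per library.

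EFNA1 (ENSG00000169242, plus strand, chr1:155127460-155134857) encodes the ligand best known for EPHA2. It held 14.8, 13.5 and 14.6 CPM in KP4 trametinib, against 9.90, 8.55 and 8.41 CPM in KP4 DMSO. In MiaPaca2 it held 43.7, 44.6 and 44.2 CPM with trametinib, against 11.6, 10.3 and 11.8 CPM with DMSO. Each trametinib library was above every DMSO library of its line. EFNA1 rose 1.60-fold in KP4 (log2 fold change 0.68 ± 0.09, adjusted p = 8.97e-07) and 3.93-fold in MiaPaca2 (1.98 ± 0.09, adjusted p = 1.56e-16). The responses differed by -1.30 ± 0.13 (adjusted p = 8.67e-09). In MiaPaca2, 758 of the genes tested rose further than EFNA1.

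EFNA5 (ENSG00000184349, minus strand, chr5:107376889-107670895) encodes an A-type ephrin known for guiding axons. Its levels were 19.99, 18.9 and 19.1 CPM in KP4 trametinib, against 17.6, 14.8 and 15.2 CPM in KP4 DMSO. In MiaPaca2 they were 74.5, 74.1 and 77.6 CPM with trametinib, against 44.8, 37.7 and 52.6 CPM with DMSO. The groups did not overlap, with the gap in KP4 small. EFNA5 rose in KP4 by 0.29 ± 0.10 on the log2 scale (adjusted p = 0.0204) and in MiaPaca2 by 0.74 ± 0.08 (adjusted p = 6.66e-08), or by 0.63 without MiaPaca2 DMSO replicate 2. The KP4 call was lost without KP4 DMSO replicate 2 (0.24, adjusted p = 0.0965), KP4 DMSO replicate 3 (0.26, adjusted p = 0.0807) or KP4 trametinib replicate 1 (0.29, adjusted p = 0.0518). The responses differed by -0.46 ± 0.13 (adjusted p = 0.0079).

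EFNB1 (ENSG00000090776, plus strand, chrX:68828997-68842147) encodes a B-type ephrin with a role in craniofacial development. It held 22.2, 25.3 and 25.9 CPM in KP4 trametinib, against 23.9, 24.9 and 27.7 CPM in KP4 DMSO. In MiaPaca2 it held 31.4, 31.7 and 33.4 CPM with trametinib, against 32.0, 32.1 and 36.9 CPM with DMSO. The treatments overlapped in both lines, and no change was detected. The log2 fold change was -0.06 ± 0.08 in KP4 (95% interval -0.22 to 0.10, adjusted p = 0.564) and -0.06 ± 0.08 in MiaPaca2 (-0.22 to 0.09, adjusted p = 0.501).

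EFNB2 (ENSG00000125266, minus strand, chr13:106489731-106535662) encodes the ligand of EPHB4. It held 2.67, 2.84 and 3.00 CPM in KP4 trametinib, against 6.06, 6.02 and 5.98 CPM in KP4 DMSO. In MiaPaca2 it held 3.70, 3.06 and 3.55 CPM with trametinib, against 5.61, 5.20 and 5.01 CPM with DMSO. All trametinib libraries lay below all DMSO libraries. EFNB2 fell in KP4 (log2 fold change -1.08 ± 0.15, adjusted p = 1.22e-06) and in MiaPaca2 (-0.61 ± 0.15, adjusted p = 0.00106). The difference of the responses, -0.47 ± 0.21, missed the threshold (adjusted p = 0.0888). EFNB2 and its receptor EPHB4 both fell in MiaPaca2, while in KP4 EFNB2 fell and EPHB4 rose. An antisense gene that shares 1313 exon bases with EFNB2, ENSG00000284966, had at most 2 counts in any library.

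**Figure D2:**
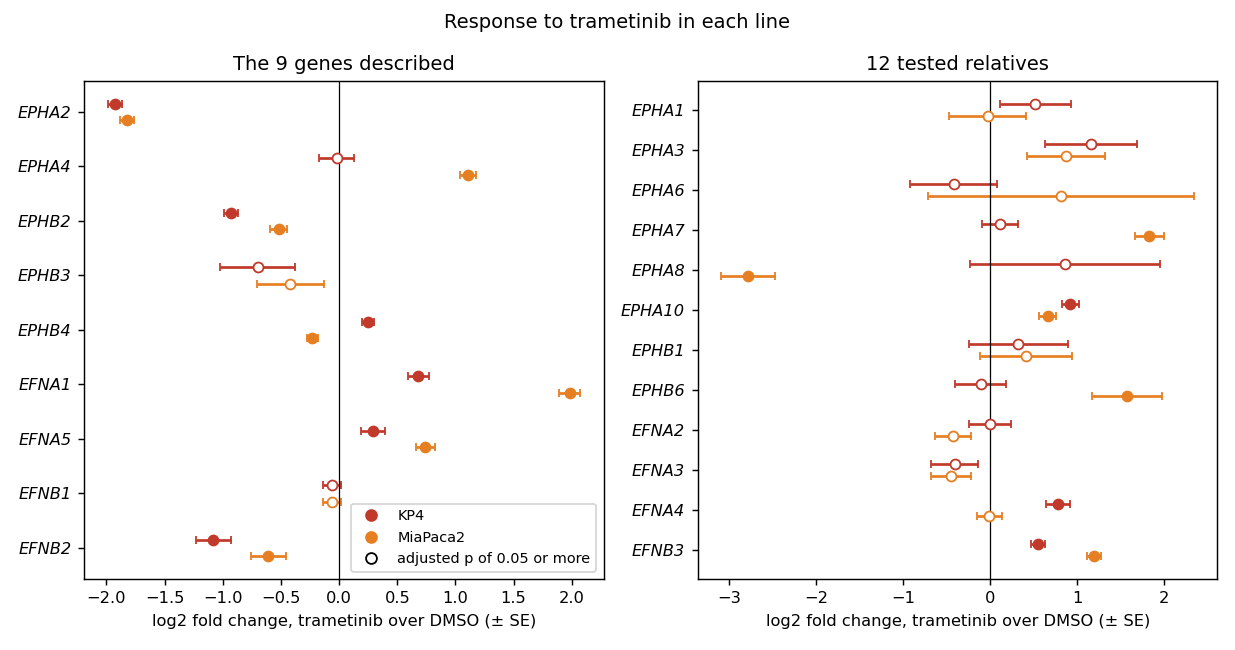
Log2 fold changes, trametinib over DMSO, with their SE (horizontal axis) for the 9 genes (left) and 12 tested relatives (right) in KP4 and MiaPaca2, from 3 libraries per group, where open points have an adjusted p of 0.05 or more. EPHA2 sits at -1.93 in KP4 and -1.82 in MiaPaca2, whereas EFNA1 stands at 0.68 in KP4 and 1.98 in MiaPaca2.

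Libraries of the treatments did not overlap for 7 of the 9 genes in KP4 and for 7 in MiaPaca2, against 60.1% and 64.4% of all genes tested. By the test of the difference itself, 5 of the 9 genes (55.6%) responded differently in the lines, against 36.1% of all genes tested. EPHB4 was the 1 gene with the higher response in KP4, against 16.2% of all genes, and the 4 with the lower response in KP4 were EPHA4, EPHB2, EFNA1 and EFNA5, against 19.9%. EPHA2, EPHB3, EFNB1 and EFNB2 were not called. Among the A-type genes of these 9, EFNA1 and EFNA5 rose and EPHA2 fell in both lines. The EFNA5 call in KP4 was lost in 3 of the fits without 1 library. EPHA4, the remaining A-type gene of the 9, rose in MiaPaca2 and stood at -0.02 in KP4.

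The lines themselves differed in most of these genes before any drug. KP4 DMSO and MiaPaca2 DMSO differed in 7 of the 9 (77.8%), 1 higher and 6 lower in KP4, against 63.0% of all genes tested (31.9% higher and 31.1% lower). Their libraries did not overlap for 7 of the 9, against 66.1% of all genes. EPHA4 was the widest gap, 30.4-fold lower in KP4 DMSO (log2 fold change -4.93 ± 0.10, adjusted p = 2.77e-17), and 406 genes lay lower in KP4 by more. EFNA5 was lower in KP4 DMSO (-1.51 ± 0.09, adjusted p = 3.23e-12), as were EPHB4 (-0.67 ± 0.05), EFNB1 (-0.40 ± 0.08) and EFNA1 (-0.33 ± 0.10). EPHB2 was higher in KP4 DMSO (0.81 ± 0.06, adjusted p = 1.79e-11). EPHB3 passed narrowly (-0.71 ± 0.29, adjusted p = 0.0361) although its libraries overlapped, and its value was -0.44 (adjusted p = 0.252) without MiaPaca2 DMSO replicate 3, -0.56 (adjusted p = 0.148) without KP4 DMSO replicate 3 and -0.92 without MiaPaca2 DMSO replicate 2. EPHA2 differed by 0.03 (95% interval -0.07 to 0.14, adjusted p = 0.605), and by 0.11 (adjusted p = 0.0349) without MiaPaca2 DMSO replicate 2. EFNB2 differed by 0.19 (95% interval -0.09 to 0.47, adjusted p = 0.249), although its libraries did not overlap.

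Under trametinib, KP4 and MiaPaca2 differed in 7 of the 9 genes, 1 higher and 6 lower in KP4, against 55.2% of all genes tested (26.0% higher and 29.2% lower), and the libraries did not overlap for 8 of the 9, against 64.4% of all genes. The EPHA4 gap was 66.9-fold (log2 fold change -6.06 ± 0.10, adjusted p = 1.45e-18). EFNA5 was 3.90-fold lower (-1.96 ± 0.09, adjusted p = 1.51e-14) and EFNA1 3.09-fold lower in KP4 trametinib (-1.63 ± 0.08, adjusted p = 5.87e-15). EPHB4 (-0.19 ± 0.05), EFNB1 (-0.40 ± 0.08) and EPHB3 (-1.0 ± 0.32, adjusted p = 0.0102) were also lower, and EPHB2 was higher (0.40 ± 0.07). The EPHB3 call was lost without MiaPaca2 trametinib replicate 1 (-0.83, adjusted p = 0.0598). EPHA2 differed by -0.08 (95% interval -0.19 to 0.04) and EFNB2 by -0.28 (-0.60 to 0.03), neither past the threshold. These comparisons use the same libraries as the drug comparisons, and so are not independent of them.

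Levels were compared between genes as CPM per kb of merged exons. In KP4 trametinib the order was EPHB4 (24.2 ± 0.509 CPM per kb, SD, n = 3), EPHA2 (20.4 ± 0.633), EFNB1, EFNA1, EPHB2, EFNA5, EPHA4, EFNB2 and EPHB3 (0.167 ± 0.0272), and the libraries of EPHA4 and EFNB2 overlapped. In KP4 DMSO it was EPHA2 (78.1 ± 2.74), EPHB4 (20.3 ± 0.789), EPHB2, EFNB1, EFNA1, EFNA5, EFNB2, EPHA4 and EPHB3, with EPHB2 and EFNB1 overlapping. In KP4, EPHA2 was the second most abundant of the 9 with trametinib and the most abundant with DMSO. In MiaPaca2 trametinib the order was EPHA4 (40.5 ± 0.882 CPM per kb), EPHB4 (27.5 ± 0.885), EPHA2 (21.5 ± 1.10), EFNA1, EFNA5, EFNB1, EPHB2, EFNB2 and EPHB3, with no overlap between any neighbours. In MiaPaca2 DMSO it was EPHA2 (76.3 ± 7.53), EPHB4 (32.3 ± 2.13), EPHA4 (18.8 ± 2.27), EFNB1, EFNA5, EPHB2, EFNA1, EFNB2 and EPHB3, where EPHB2 and EFNA1 overlapped. Among all genes tested, the EPHA2 level per kb lay above 85.4% of genes in KP4 trametinib and 97.2% in KP4 DMSO, and above 85.7% in MiaPaca2 trametinib and 96.9% in MiaPaca2 DMSO. EPHB3 was above 10.3% to 19.4% of genes.

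**Figure D3:**
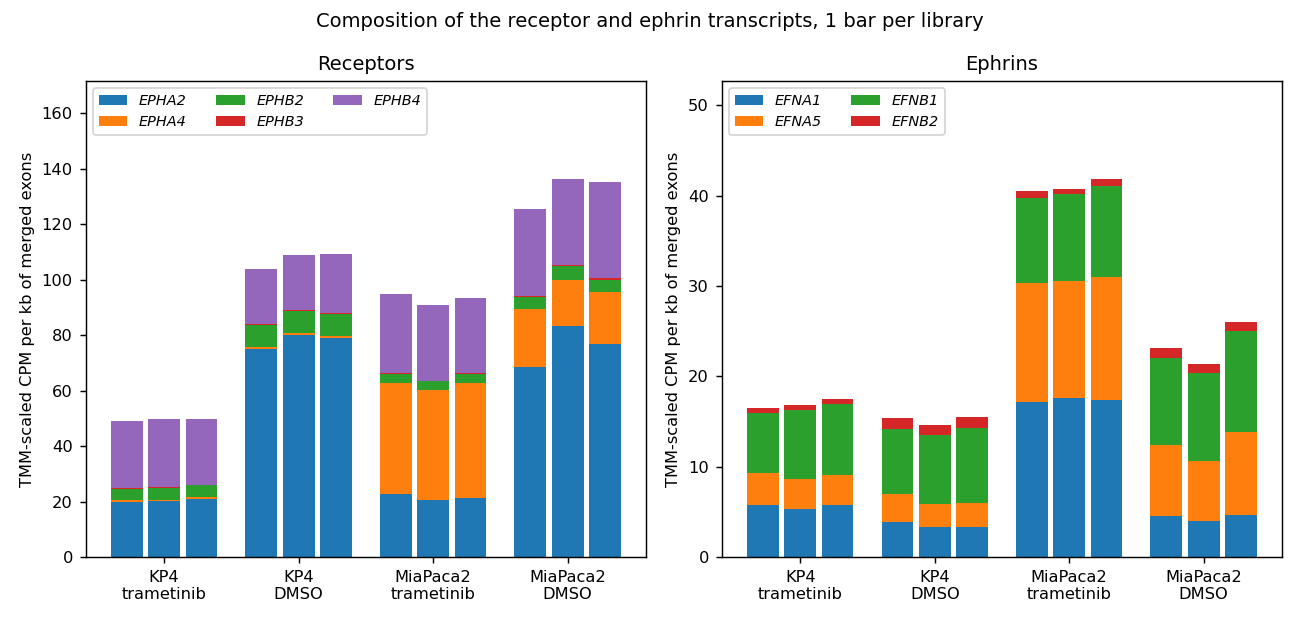
Stacked levels in TMM-scaled CPM per kb of merged exons (vertical axis, from 0) of the 5 receptors (left) and the 4 ephrins (right), 1 bar for each of the 12 libraries in 4 groups. The EPHA2 segment is the tallest of the receptors in every DMSO library, EPHB4 is the tallest in KP4 trametinib and EPHA4 in MiaPaca2 trametinib.

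Summed over the 5 receptors, the level was 49.6 ± 0.565 CPM per kb in KP4 trametinib and 107 ± 3.06 in KP4 DMSO, and 93.1 ± 2.06 in MiaPaca2 trametinib and 132 ± 5.88 in MiaPaca2 DMSO (SD, n = 3 each). The libraries of the treatments did not overlap in either line. EPHA2 made up 41.2% ± 1.02 of that sum in KP4 trametinib and 72.7% ± 0.741 in KP4 DMSO. In MiaPaca2 its share was 23.1% ± 0.703 with trametinib and 57.5% ± 3.48 with DMSO. EPHB4 took 48.8% ± 0.983 in KP4 trametinib and 18.9% ± 0.617 in KP4 DMSO, and EPHA4 took 43.5% ± 1.04 in MiaPaca2 trametinib and 14.2% ± 2.31 in MiaPaca2 DMSO. The receptor most abundant under trametinib was EPHB4 in KP4 and EPHA4 in MiaPaca2. Summed over the 4 ephrins, the level was 17.0 ± 0.518 CPM per kb in KP4 trametinib and 15.2 ± 0.456 in KP4 DMSO. In MiaPaca2 the ephrin sum was 41.0 ± 0.679 with trametinib and 23.5 ± 2.34 with DMSO. EFNA1 made up 42.4% ± 0.757 of it with trametinib and 18.8% ± 0.886 with DMSO. These sums and shares leave out the other Eph receptors and ephrins, so they do not describe the whole family. The ephrin EFNB3, outside the sums, held 8.37 CPM per kb in KP4 trametinib and 5.71 in KP4 DMSO. In MiaPaca2 it held 12.6 with trametinib and 5.54 with DMSO. Shares sum to 100, so a fall of 1 gene raises the shares of the others.

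Of the 13 other Eph receptors and ephrins, 12 passed the filter. In KP4, 3 were called higher and 0 lower, and in MiaPaca2, 4 were called higher and 1 lower. By edgeR, 0 were lower in KP4 at an unadjusted p under 0.05, and DESeq2 and limma-voom each called 0 lower. Of all genes tested, 23.6% were called higher and 23.6% lower in KP4, and 34.1% higher and 29.5% lower in MiaPaca2, so the shares called higher lie near the background. EFNB3, the remaining B-type ephrin, rose in both lines, to 27.0 CPM in KP4 trametinib against 18.4 CPM in KP4 DMSO (log2 fold change 0.55 ± 0.08, adjusted p = 2.68e-06) and to 40.6 CPM in MiaPaca2 trametinib against 17.8 CPM in MiaPaca2 DMSO (1.19 ± 0.08, adjusted p = 1.35e-12). EPHA10, which lacks kinase activity, also rose in both (0.92 ± 0.10 in KP4 and 0.66 ± 0.10 in MiaPaca2). The ephrin EFNA4 rose in KP4 (0.78 ± 0.14), and its log2 fold change in MiaPaca2 was -0.01 ± 0.14. In MiaPaca2, EPHA7 rose to 9.13 CPM with trametinib against 2.56 CPM with DMSO (1.83 ± 0.17), and EPHA8 fell to 0.920 CPM against 6.36 CPM (-2.78 ± 0.31, adjusted p = 1.52e-08). EPHB6, another receptor without kinase activity, rose in MiaPaca2 to 1.23 CPM against 0.411 CPM (1.57 ± 0.40, adjusted p = 0.00124). EPHB6 had only 7, 17 and 5 counts in the MiaPaca2 DMSO libraries. Without DMSO replicate 2, which held the 17, its value was 2.24 ± 0.46. EPHA1, EPHA3, EPHA6, EPHB1, EFNA2 and EFNA3 were called in neither line, and EPHA5, below the filter, reached at most 0.386 CPM in any library.

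Of 37 tested adaptors and effectors of forward signalling, 9 were called higher and 14 lower in KP4, and 12 higher and 15 lower in MiaPaca2. Over all genes, 23.6% were called higher and 23.6% lower in KP4, and 34.1% and 29.5% in MiaPaca2. The median log2 fold change of the list was -0.09 in KP4 and 0.03 in MiaPaca2. NGEF (ephexin), the exchange factor that couples EPHA4 to RHOA, fell to 3.20 CPM in KP4 trametinib against 11.1 CPM in KP4 DMSO (-1.79 ± 0.14) and to 13.6 CPM in MiaPaca2 trametinib against 61.4 CPM in MiaPaca2 DMSO (-2.17 ± 0.10). RIN1, an activator of RAB5 that acts in receptor uptake, fell in KP4 (-1.30 ± 0.08) and in MiaPaca2 (-1.08 ± 0.08). TIAM2, an exchange factor for RAC1, rose in KP4 (1.40 ± 0.11) and in MiaPaca2 (1.64 ± 0.13). RHOA itself rose in KP4 (0.56 ± 0.04), and ITSN2, an endocytic scaffold, rose in MiaPaca2 (0.57 ± 0.05). RHOA was also higher in MiaPaca2, at 572 CPM with trametinib against 473 CPM with DMSO. ITSN2 was also higher in KP4, at 95.9 CPM with trametinib against 76.2 CPM with DMSO.

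Among 16 tested Src family kinases and partners of reverse signalling, 9 were called higher and 2 lower in KP4, with a median log2 fold change of 0.21, and 8 higher and 6 lower in MiaPaca2, with a median of 0.22. The shares of all genes were 23.6% higher and 23.6% lower in KP4, and 34.1% and 29.5% in MiaPaca2. RGS3, which links B-type ephrins to G protein signalling, fell in KP4 (-0.31 ± 0.10, adjusted p = 0.0116) and in MiaPaca2 (-1.53 ± 0.08, adjusted p = 1.98e-14). The Src family kinase LYN (0.69 ± 0.13) and the PDZ scaffold GRIP1 (0.55 ± 0.20) rose in KP4, and DVL1, a Dishevelled protein, fell (-0.31 ± 0.05). In KP4, the RGS3 call was lost without DMSO replicate 3 (adjusted p = 0.0698), and the GRIP1 call without any 1 of trametinib replicates 1 and 3 and DMSO replicates 1, 2 and 3 (adjusted p of 0.0535 to 0.0741). In MiaPaca2 the scaffold GRIP2 fell (-1.42 ± 0.20), while CAV1, the coat protein of caveolae (1.15 ± 0.07), and the polarity protein PARD6B (1.04 ± 0.08) rose. In MiaPaca2, LYN was lower with trametinib (23.5 CPM against 33.9 CPM with DMSO), as was DVL1 (127 against 186 CPM). GRIP1 held 1.54 CPM in MiaPaca2 trametinib and 0.827 CPM in MiaPaca2 DMSO. In KP4, CAV1 (772 CPM with trametinib against 582 CPM with DMSO) and PARD6B (37.5 against 28.7 CPM) were also higher. GRIP2 held 0.962 CPM in KP4 trametinib and 0.814 CPM in KP4 DMSO.

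Of 15 tested genes for cleavage, turnover and dephosphorylation of the receptors and ephrins, 6 were called higher and 2 lower in KP4, and 7 higher and 3 lower in MiaPaca2, with a median of 0.19 in each. Over all genes these shares were 23.6% and 23.6% in KP4, and 34.1% and 29.5% in MiaPaca2. The ubiquitin ligase gene CBLB rose to 21.1 CPM in KP4 trametinib against 9.14 CPM in KP4 DMSO (1.21 ± 0.10) and to 17.9 CPM in MiaPaca2 trametinib against 4.96 CPM in MiaPaca2 DMSO (1.85 ± 0.11), whereas CBL, its close relative, fell in KP4 (-0.46 ± 0.04). ACP1, the low molecular weight phosphatase that acts on EPHA2, fell in KP4 (-0.30 ± 0.05), and the receptor phosphatase PTPRJ rose (1.11 ± 0.05). In MiaPaca2, ADAM10, the protease that sheds A-type ephrins, fell (-0.43 ± 0.06), the receptor phosphatase PTPRF fell (-1.15 ± 0.07), and MMP14, a membrane-bound protease that cleaves EPHA2, rose to 782 CPM with trametinib against 334 CPM with DMSO (1.23 ± 0.14). PTPRJ was also higher in MiaPaca2, at 126 CPM with trametinib against 57.7 CPM with DMSO. PTPRF went the other way in KP4, at 136 CPM with trametinib against 79.1 CPM with DMSO. MMP14 held 1005 CPM in KP4 trametinib and 883 CPM in KP4 DMSO, and ADAM10 held 67.4 and 65.3 CPM. In MiaPaca2, ACP1 held 78.3 CPM with trametinib and 88.8 CPM with DMSO, and CBL held 115 and 118 CPM.

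The genes with the pattern most like each of the 9 were found as the smallest root mean square difference of log2 CPM, each gene centred on its own mean, over the 12 libraries and among 10900 genes with a mean of at least 5 CPM. For EPHA2 they were HMGA1, at a difference of 0.0786, and PMEPA1, at 0.172. HMGA1 averaged 595 CPM in KP4 trametinib against 2129 CPM in KP4 DMSO, and 632 CPM in MiaPaca2 trametinib against 2119 CPM in MiaPaca2 DMSO. For EPHA4 they were ALDH1A1 (0.310) and GATA2-AS1 (0.389), the widest differences of any of the 9, and ALDH1A1 averaged 41.0 CPM in KP4 trametinib, 26.6 in KP4 DMSO, 1704 in MiaPaca2 trametinib and 964 in MiaPaca2 DMSO. For EPHB2 they were DNMBP (0.0512) and SLC35F2 (0.0736), and for EPHB4 AP2A2 (0.0410) and TUBB6 (0.0584). EFNA1 lay nearest to LAP3 (0.107) and PML (0.117), and EFNA5 to NOTCH1 (0.113) and ANKRD50 (0.123). EFNB1 lay nearest to MAPK14 (0.0803) and SELENOW (0.0821), EFNB2 to KBTBD2 (0.0880) and RAP2C (0.118), and EPHB3 to ZNF703 (0.226) and IER5L (0.237). All points share the same 12 libraries.

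The summed levels of ductal, mesenchymal and fibroblast marker lists did not overlap between treatments in either line. Of single genes tested, 60.1% in KP4 and 64.4% in MiaPaca2 did not overlap either. Of 8 tested ductal and epithelial markers, 4 were called higher and 2 lower in KP4 (median log2 fold change 0.36), and 3 higher and 4 lower in MiaPaca2 (median -0.21). Over all genes, 23.6% were called higher and 23.6% lower in KP4, and 34.1% and 29.5% in MiaPaca2. The summed level of the ductal and epithelial markers, which rests on a few abundant genes such as KRT18, was 237 to 246 CPM in KP4 trametinib and 372 to 383 CPM in KP4 DMSO, and 853 to 862 CPM in MiaPaca2 trametinib and 1844 to 2218 CPM in MiaPaca2 DMSO. KRT18 and SOX9 fell in both lines, whereas CDH1 and MUC1 rose in both. The 4 mesenchymal markers summed to 3313 to 3323 CPM in KP4 trametinib and 3819 to 3843 CPM in KP4 DMSO, and to 5067 to 5163 CPM in MiaPaca2 trametinib and 5886 to 6553 CPM in MiaPaca2 DMSO. That sum is mostly VIM, with 1309003 counts over the 12 libraries against 32025 for CDH2, the next. By gene, 0 of the 4 were called higher and 2 lower in KP4 (median log2 fold change -0.15). In MiaPaca2, 2 were called higher and 2 lower (median 0.46), with the shares of all genes as given above. The 6 fibroblast markers summed to 14.2 to 15.2 CPM in KP4 trametinib and 8.20 to 9.52 CPM in KP4 DMSO, and to 241 to 256 CPM in MiaPaca2 trametinib and 76.8 to 128 CPM in MiaPaca2 DMSO. COL1A2, the most abundant of these 6 over the 12 libraries (21635 counts), had 0 counts in KP4 DMSO. The 6 immune markers summed to 0.843 to 0.897 CPM in KP4 trametinib and 1.67 to 1.86 CPM in KP4 DMSO, and to 4.10 to 5.87 CPM in MiaPaca2 trametinib and 4.43 to 6.35 CPM in MiaPaca2 DMSO. The part of these lists in the results on the receptors and ephrins was not tested. The endothelial receptor KDR and the lymphocyte genes CD3E and MS4A1 had 0 counts in all 12 libraries, and the summed level of 6 endothelial markers was 1.87 to 4.04 CPM.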

How the data were processed

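RNA-seq read counts of 12 libraries were analysed, 3 in each of 4 groups given by the sample labels. The authors deposited whole-number counts per gene without normalization. The GRCh38 (hg38) build, STAR and DESeq2 are named in the submitters' processing notes. For tool versions, counting program, annotation, strand and reads with several matches, nothing is stated: not given in the sources used here. All 58735 identifiers matched GENCODE 29, with 0 rows that named no gene.

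Genes were filtered with filterByExpr and scaled with TMM, and edgeR 4.0.16 (R 4.3.3, limma 3.58.1) fitted a quasi-likelihood model with robust shrinkage and 1 mean per group over all 12 libraries. P-values were adjusted by Benjamini-Hochberg over the 16133 genes tested, and a call needed an adjusted p under 0.05. The common dispersion gave a coefficient of variation of 5.47%. CPM are TMM-scaled, and CPM per kb uses merged GENCODE exons. The script was tested on simulated counts. No pair of libraries in a group agreed within sampling noise by a chi-square test over genes.

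The 9 genes and the lists of other genes were chosen with earlier results of these data known. All 9 were named. From each list of relatives, partners and ERK-dependent genes (not the marker lists), the 2 largest and 2 smallest log2 fold changes per line were named among called genes with at least 1 CPM in the higher group, and all other family members. Alternatives were RLE scaling, library size only, a looser and a stricter filter, DESeq2 1.42.0, limma-voom, no robust shrinkage, a replicate block, the compared libraries alone, and leaving out each library. Promoter sequences are RefSeq's, on GRCh38.p14. Library totals of 20293688 to 28018129 set the counting precision: EPHB3, with 19 to 62 counts, is the least precise of the 9.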

Additional observations from a re-analysis of the deposited data

Results flagged for a closer look

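The response to trametinib differed between the lines, by edgeR's test of the difference itself (KP4 minus MiaPaca2, log2 scale, 3 libraries per group), for 5 of the 9 genes. EPHA4 differed by -1.13 (adjusted p = 4.15e-05), with a response of -0.02 in KP4 and 1.11 in MiaPaca2. EFNA1 differed by -1.30 (adjusted p = 8.67e-09), with 0.68 in KP4 and 1.98 in MiaPaca2. EPHB4 differed by 0.48 (adjusted p = 2.00e-06), with 0.25 in KP4 and -0.23 in MiaPaca2, opposite directions that were each called. EPHB2 differed by -0.42 (adjusted p = 6.23e-04), having fallen in both lines. EFNA5 differed by -0.46 (adjusted p = 0.0079), having risen in both. Without MiaPaca2 DMSO replicate 2 these 5 differences were -1.04, -1.23, 0.52, -0.51 and -0.34, in the same order, and all 5 were called.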

How the results depend on the processing

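For the 9 genes, 45 log2 fold changes (9 genes in 5 contrasts) were recomputed under up to 21 alternatives, 12 of which left out 1 library, and 36 kept their direction and their side of the threshold under all that were run. The numbers of the 9 genes called kept within 1.5 times, with 1 exception: genes higher in KP4 DMSO than in MiaPaca2 DMSO numbered 1, and 1 to 2 when each library was left out, with 2 without MiaPaca2 DMSO replicate 2, where EPHA2 was called. With 1 library left out, uncalled values near 0 changed sign. EPHA4 in KP4 ran from -0.13 to 0.08, EFNB1 from -0.11 to 0.03 in KP4 and from -0.10 to 0.00 in MiaPaca2, the EFNB1 difference of responses from -0.07 to 0.13, and EPHA2 between the DMSO groups from -0.04 to 0.11. The EFNB1 difference was also -0.01 with library size only and -0.01 with limma-voom. EPHB3 between the DMSO groups was not called under the looser filter (-0.71, adjusted p = 0.0554) or without KP4 DMSO replicate 1 (-0.73, adjusted p = 0.0681) or MiaPaca2 DMSO replicate 1 (-0.75, adjusted p = 0.053). The cause of these changes was not tested.

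No pairing of the libraries by replicate number was detected: deviations of same-numbered trametinib and DMSO libraries correlated at -0.02 to 0.02. These correlations run over all genes tested and could miss a weak shared effect. With the replicate block, the calls among the 9 genes were 3 higher and 3 lower in KP4, 3 and 4 in MiaPaca2, 1 and 4 for the difference of responses, and 1 and 6 in each comparison of the lines, the counts found without it. Taking the longest annotated transcript as length moved the EPHA2 share of the receptors' sum to 37.0% in KP4 trametinib, 69.3% in KP4 DMSO, 20.6% in MiaPaca2 trametinib and 53.5% in MiaPaca2 DMSO. It also exchanged the places of 2 genes in each group's order of levels except KP4 DMSO. Depth limits EPHB3 and the scarce relatives most, and counting without known strand leaves reads shared with antisense genes unassigned.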
